A study of Mus musculus with 6 samples.

Results

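The genes described here encode the steps by which Leydig cells, the steroid-producing cells between the seminiferous tubules, make testosterone. The list holds 10 genes: Scarb1, Star, Cyp11a1, Hsd3b1, Hsd3b6, Cyp17a1, Hsd17b3, Nr5a1, Lhcgr and Insl3. Members were the probe sets that the platform's probe annotation gives to 1 listed gene and to no other. This rule, which uses no measured value, found 14 of 45037 probe sets, for 7 of the 10 genes and of 18193 genes in all. Hsd3b6 and Insl3 occur only in probe sets shared with other genes, and no probe set is named Lhcgr in the annotation used here.

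Whole testes of juvenile mice were profiled at 21 days of age, 3 from Nxf2 knockout (KO) and 3 from wild-type (WT) animals, with 1 array each of 1-colour Affymetrix type. Nxf2 is a germ cell relative of the messenger RNA export receptor Nxf1, and the submitters recorded similar testis weights in both genotypes at this age. All mice lived in a standard barrier facility and no treatment is stated. The labels give neither the strain nor the knockout allele nor the number of animals per sample. The design text speaks of pairs without saying what they share, so KO and WT were compared without pairing. The p-values measure only the spread between these samples, which may be technical.

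Luteinizing hormone from the pituitary acts on the receptor Lhcgr and raises cyclic AMP in Leydig cells, which sets steroid output. Cholesterol taken up from lipoproteins is moved to the inner mitochondrial membrane, cut to pregnenolone there, and turned into testosterone by enzymes of the endoplasmic reticulum. Nr5a1, also called SF-1, is the nuclear receptor that binds the promoters of many of these genes, and GATA factors bind others. Around the third week of life mouse Leydig cells pass from a fetal to an adult population.

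The RefSeq promoter table of the mouse assembly GRCm38.p6 held 7 windows for 6 of the 10 genes (Cyp11a1, Hsd3b1, Hsd3b6, Hsd17b3, Insl3 and Lhcgr). The 250 bases before each annotated start were searched on both strands. The motifs were AGGTCA, a short form of the Nr5a1 site, and AGATAA, a form of the GATA site. No member window held both motifs. The sequences of 3 genes are shown because they hold, in this order, the Nr5a1 core, the GATA site and neither motif, and because each gene was read by a probe set of its own. Capitals mark the matched letters, and each sequence runs 5′ to 3′ along the gene.
Cyp11a1, plus strand, chr9:58014702-58014951: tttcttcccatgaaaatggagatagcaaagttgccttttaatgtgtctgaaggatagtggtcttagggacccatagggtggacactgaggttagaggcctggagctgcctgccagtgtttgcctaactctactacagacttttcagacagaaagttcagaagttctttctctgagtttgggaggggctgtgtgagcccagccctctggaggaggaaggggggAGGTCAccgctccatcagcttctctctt
Hsd3b1, minus strand, chr3:98859795-98860044: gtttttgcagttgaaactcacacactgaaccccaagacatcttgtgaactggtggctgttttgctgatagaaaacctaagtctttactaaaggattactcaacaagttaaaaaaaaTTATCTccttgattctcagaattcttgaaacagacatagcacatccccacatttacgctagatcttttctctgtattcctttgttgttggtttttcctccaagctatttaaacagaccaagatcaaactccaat
Hsd17b3, minus strand, chr13:64089202-64089451: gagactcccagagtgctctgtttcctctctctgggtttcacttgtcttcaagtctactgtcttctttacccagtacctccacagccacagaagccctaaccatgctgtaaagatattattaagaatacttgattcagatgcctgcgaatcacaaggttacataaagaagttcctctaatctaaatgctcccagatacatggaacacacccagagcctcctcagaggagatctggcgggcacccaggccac
In Cyp11a1 the AGGTCA lay at bases -28 to -23 from this start, while the window of the gene's other annotated start, at chr9:57997774-57998023, held neither motif. In Hsd3b1 the capitals TTATCT are AGATAA read on the opposite strand, at bases -134 to -129. Lhcgr held an AGGTCA and Hsd3b6 an AGATAA, and Insl3 held neither. Of 32851 promoter windows of the same length, 14.0% held AGGTCA and 9.99% AGATAA, against 2 of the 7 member windows for each motif. These matches are descriptions of the letters in the windows. Other forms of either site were not searched, so a window without a match may still hold one.

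Expression is given as the MAS5 signal, a linear brightness that MAS5 computes for a probe set by setting its perfect-match probes against their mismatch partners. Its trimmed mean, without the lowest and highest 2% of probe sets, was 150 on each array, and the array medians lay between 37.1 and 40.9. The Nxf2 signal was 116, 106 and 131 on the KO arrays and 374, 340 and 386 on the WT arrays, a log2 fold change of -1.59 ± 0.0999 (SE; limma, adjusted p = 0.000488). The labels do not say whether its probes lie in the deleted part. KO replicate 3 stood apart for the steroid synthesis genes: it was the highest of all 6 arrays for 11 of the 13 member probe sets tested, against 31.1% of all tested probe sets. Values without it stand beside each gene it moves or in the account of the list without that array. A fold change here is KO minus WT on the log2(signal + 7) scale, which understates the change of dim probe sets. A gene is represented by its brightest probe set, and called where limma's p, adjusted by Benjamini-Hochberg over all 27022 tested probe sets, is under 0.05.

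Of the 7 measured genes, Star and Scarb1 rose in KO testes and none fell. Star, which carries cholesterol into mitochondria, was 2.01-fold higher, and Scarb1, the receptor that takes up cholesterol from HDL, 1.25-fold higher. The other 5 (Cyp11a1, Hsd3b1, Cyp17a1, Hsd17b3 and Nr5a1) did not pass the test, with folds from 1.12 for Hsd3b1 to 1.74 for Cyp17a1. Of all 12971 genes tested in the same way, 2.98% rose. At an unadjusted p under 0.05, 5 of the 7 genes were higher in KO and none was lower, against 18.5% of all genes that were higher at that threshold. With a replicate block, which takes arrays of equal number as pairs, Cyp11a1, Cyp17a1 and Hsd17b3 passed as well (limma), against 10.7% of all genes. In whole testis, more Leydig cells, more RNA per Leydig cell and a changed share of other cells cannot be told apart.

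**Figure D1:**
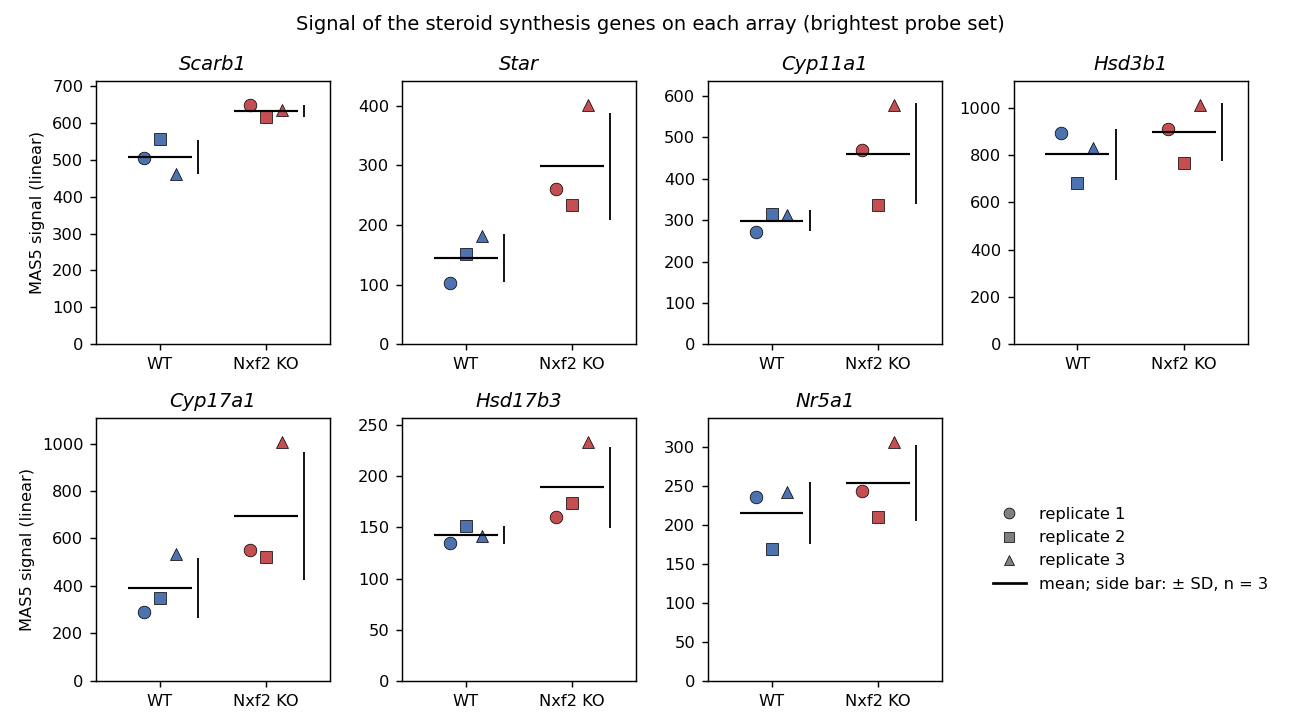
MAS5 signal on a linear axis starting at 0 for the brightest probe set of each of the 7 steroid synthesis genes, by genotype. Marker shape gives the replicate number, horizontal lines are group means and side bars ± SD (n = 3 each). KO replicate 3 is the highest point for each gene except Scarb1, whose KO arrays lie close together between 615 and 649.

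Scarb1 RNA in whole testis was read by 3 probe sets, and each of them rose. The brightest gave 649, 615 and 636 in KO replicates 1 to 3 and 504, 557 and 463 in WT replicates 1 to 3. The KO arrays lay close together and above all WT arrays, at 633.4 ± 16.9 against 507.8 ± 47.1 (SD, n = 3 each). The log2 fold change was 0.32 (95% interval 0.16 to 0.48, limma, adjusted p = 0.0301). The second Scarb1 probe set gave 559, 535 and 574 in KO against 458, 472 and 441 in WT, a log2 fold change of 0.28 (limma, adjusted p = 0.0261). The third gave 480, 439 and 482 against 386, 358 and 357, a log2 fold change of 0.34 (limma, adjusted p = 0.0210). In each Scarb1 probe set the lowest KO array was above the highest WT array. The margin by which the brightest passed was small: with 1 array left out it passed only without WT replicate 2, and its adjusted p ranged from 0.0147 to 0.122 over the 6 arrays.

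Star brings cholesterol from the outer to the inner mitochondrial membrane, the hormone-regulated step of the pathway. Its brightest probe set gave 261, 234 and 401 in KO replicates 1 to 3 and 102, 151 and 182 in WT replicates 1 to 3. The groups did not overlap, and WT replicate 1 was the lowest array and KO replicate 3 the highest. Means were 298.7 ± 90.0 and 144.9 ± 40.2 for KO and WT (SD, n = 3 each). The log2 fold change was 1.01 ± 0.222 (SE; 95% interval 0.51 to 1.50; limma, adjusted p = 0.0271). The second Star probe set gave 118, 120 and 268 in KO against 99.6, 99.7 and 107 in WT, a log2 fold change of 0.58 (95% interval 0.02 to 1.15, limma, adjusted p = 0.165). The third gave 43.9, 50.1 and 186 against 45.2, 27.1 and 43.3, a log2 fold change of 0.88 (95% interval -0.06 to 1.82, limma, adjusted p = 0.200). In these 2 probe sets KO replicate 3 alone was far above the other arrays, at 2.25 and 3.95 times the mean of the other KO arrays, against 1.62 times in the brightest. Without KO replicate 3 the brightest Star probe set had a log2 fold change of 0.78 (limma, adjusted p = 0.0681), and without WT replicate 1 of 0.79 (limma, adjusted p = 0.100), so the call was lost in both cases. The other Star probe sets had 0.21 and 0.27 without KO replicate 3. It passed when any 1 of the other 4 arrays was left out.

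Cyp11a1 is the side-chain cleavage enzyme that turns cholesterol into pregnenolone, the first steroid of the pathway. Its brightest probe set gave 469, 336 and 579 in KO replicates 1 to 3 and 270, 314 and 313 in WT replicates 1 to 3. The groups did not overlap, but KO replicate 2 was only slightly above the WT arrays. Means were 461.2 ± 121.5 in KO and 299.1 ± 24.96 in WT (SD, n = 3 each), and the log2 fold change was 0.58 (95% interval 0.22 to 0.94; limma, adjusted p = 0.0553), so the gene did not pass the test. With 1 array left out it passed only without KO replicate 2, with a log2 fold change of 0.79 (limma, adjusted p = 0.0173). It was 0.40 without KO replicate 3 and 0.51 without WT replicate 1 (limma, adjusted p = 0.136 and 0.177). A second Cyp11a1 probe set gave 50.6, 40.6 and 45.6 against 45.1, 41.1 and 38.4, with overlapping groups and a log2 fold change of 0.11 (95% interval -0.19 to 0.42, limma, adjusted p = 0.610). The third was below the filter on dim probe sets, at signals between 3.8 and 7.4, and was not tested.

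Hsd3b1 oxidizes pregnenolone and related steroids to their keto forms, such as progesterone. It gave 911, 766 and 1011 in KO replicates 1 to 3 and 894, 683 and 829 in WT replicates 1 to 3. The groups overlapped, and replicate 2 was the lowest array in both. The means of 896.0 ± 123.3 in KO and 802.3 ± 108.1 in WT (SD, n = 3 each) differed by a log2 fold change of 0.16 (95% interval -0.09 to 0.41, limma, adjusted p = 0.378). It was 0.07 without KO replicate 3.

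Cyp17a1 carries out the hydroxylase and lyase steps that lead from progestins to androgens. It gave 553, 523 and 1008 in KO replicates 1 to 3 and 291, 349 and 535 in WT replicates 1 to 3. KO replicate 2 was below WT replicate 3, so the groups overlapped, and replicate 3 was the highest array of each group. Means were 694.8 ± 271.5 in KO and 391.6 ± 127.4 in WT (SD, n = 3 each), and the log2 fold change was 0.80 (95% interval 0.23 to 1.36, limma, adjusted p = 0.0813), which did not pass the test. With 1 array left out it passed only without WT replicate 3, at 1.04 (limma, adjusted p = 0.0453). It was 0.50 without KO replicate 3 and 0.61 without WT replicate 1 (limma, adjusted p = 0.212 and 0.234). Without both arrays numbered 3, an alternative chosen after seeing the data, it passed at 0.74 (limma, adjusted p = 0.00439).

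Hsd17b3 is the testis enzyme that reduces androstenedione to testosterone, the last step. It gave 160, 174 and 234 in KO replicates 1 to 3 and 135, 151 and 141 in WT replicates 1 to 3. The groups did not overlap, though KO replicate 1 was close to the highest WT array. Means were 189.1 ± 39.3 in KO and 142.5 ± 8.48 in WT (SD, n = 3 each), and the log2 fold change was 0.38 (95% interval 0.07 to 0.68, limma, adjusted p = 0.111). It was 0.22 without KO replicate 3 (limma, adjusted p = 0.282).

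The regulator Nr5a1 is also made by Sertoli cells, so its signal is not that of Leydig cells alone. Its brighter probe set gave 244, 211 and 307 in KO replicates 1 to 3 and 236, 170 and 242 in WT replicates 1 to 3. The groups overlapped, with a log2 fold change of 0.23 (95% interval -0.12 to 0.58, limma, adjusted p = 0.367), which was 0.0855 without KO replicate 3. The dimmer Nr5a1 probe set gave 50.8, 44.2 and 51.9 against 43.4, 46.7 and 36.8, a log2 fold change of 0.18 (limma, adjusted p = 0.400).

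Insl3, the Leydig cell peptide hormone that guides testis descent, and Hsd3b6, the isoform of adult Leydig cells, could not be read apart from other genes. The tested probe set shared by Jak3 and Insl3 gave 337, 449 and 852 in KO replicates 1 to 3 and 208, 216 and 506 in WT replicates 1 to 3. The groups overlapped, with a log2 fold change of 0.82 (95% interval 0.01 to 1.62, limma, adjusted p = 0.170). A second Jak3 and Insl3 probe set was dim, between 1.7 and 10.9, and was not tested. The probe set shared by Hsd3b6, Hsd3b3 and Hsd3b2 gave 337, 501 and 813 in KO replicates 1 to 3 and 234, 209 and 425 in WT replicates 1 to 3. These groups overlapped too, with a log2 fold change of 0.89 (95% interval 0.21 to 1.57, limma, adjusted p = 0.0984). In both probe sets replicate 3 was by far the highest array of its group, at 2.17 and 2.38 times the mean of the other arrays in KO and WT for the first, and 1.94 and 1.92 times for the second. The log2 fold changes were 0.44 and 0.57 without KO replicate 3 (limma, adjusted p = 0.481 and 0.283).

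**Figure D2:**
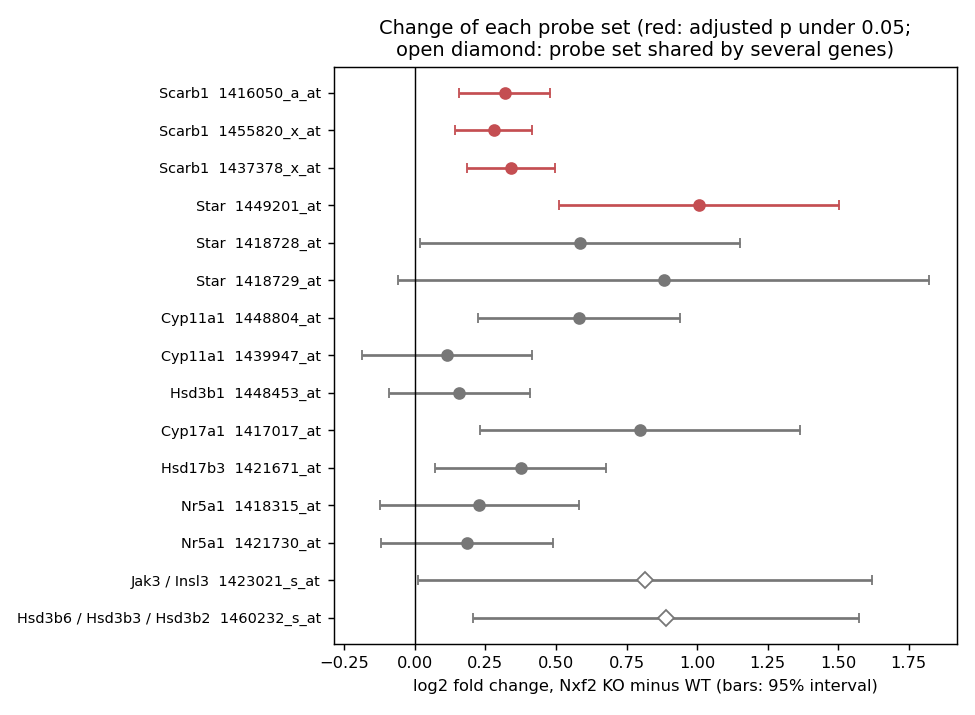
Log2 fold change of each tested probe set, KO minus WT, with limma's 95% interval as bars (n = 3 each). The 4 red probe sets, 3 of Scarb1 and 1 of Star, passed at adjusted p under 0.05, grey ones did not, and open diamonds are probe sets shared by several genes.

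Counted over the list, 4 of the 13 tested member probe sets rose and none fell, against 2.26% of all tested probe sets that rose. The 4 read Scarb1 and Star alone, and probe sets of the same gene are not independent readings. All 13 had a higher KO than WT mean on the log2 scale, as had 56.9% of all tested probe sets, but 4 of them changed sign when arrays were centred on Sertoli cell genes (Hsd3b1, both Nr5a1 probe sets and the dimmer Cyp11a1 one) and 2 with array weights (Hsd3b1 and the same Cyp11a1 probe set). The groups did not overlap, with KO above, in 7 of the 13 probe sets, against 19.1% of all tested probe sets. By brightest probe set this held for 4 of the 7 genes (Scarb1, Star, Cyp11a1 and Hsd17b3), against 21.5% of genes. The median log2 fold change of the 7 genes was 0.38, from 0.16 for Hsd3b1 to 1.01 for Star, and that of all tested probe sets was 0.037.

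The arrays of a genotype were more unequal for these genes than for most. The coefficient of variation (SD over mean of the signal) of the 7 genes had a median of 20.8% in KO and 13.5% in WT, against medians of 8.69% and 8.22% over all tested probe sets. It ran from 2.67% for Scarb1 to 39.1% for Cyp17a1 in KO, and from 5.95% for Hsd17b3 to 32.5% for Cyp17a1 in WT. KO replicate 3 was the highest array for 6 of the 7 genes, all except Scarb1. WT replicate 3 was the highest WT array for Star, Cyp17a1 and Nr5a1. The median of the 7 genes relative to the WT mean was 0.35, 0.27 and 0.69 in KO replicates 1 to 3 and -0.08, 0.07 and 0.07 in WT replicates 1 to 3, on the log2 scale. Each KO array was thus above each WT array for the median of the list, and KO replicate 3 was the highest of them.

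Other genes of the pathway were counted by lists. Of 20 listed partner enzymes and carriers, 5 had no probe set of their own, among them the reductases that feed electrons to the pathway. Of the 13 tested, none passed (limma; 1 at an unadjusted p under 0.05). The KO mean was higher for 12, as for 56.9% of all genes, with a median log2 fold change of 0.13. The lowest p belonged to Hsd17b12 at 0.13 (limma, adjusted p = 0.124) and H6pd, which supplies NADPH in the endoplasmic reticulum, at 0.36 (limma, adjusted p = 0.205). Of 11 genes of cholesterol supply and efflux, 2 rose and none fell, against 2.98% of all genes that rose. The 2 were Abca1, at 818.8 ± 31.8 in KO against 635.1 ± 69.2 in WT, and Abcg1, at 262.1 ± 54.0 against 174.9 ± 20.1 (SD, n = 3 each). Both encode exporters of cholesterol, and their log2 fold changes were 0.37 and 0.55 (limma, adjusted p = 0.0231 and 0.0441). Of 20 genes of cholesterol synthesis none rose and 1 fell. This was Fdft1, the squalene synthase, from 792.2 ± 62.9 to 561.3 ± 19.9 (SD, n = 3 each), and its log2 fold change was -0.49 (limma, adjusted p = 0.00577). Of the 20, 16 had a higher KO mean, as had 56.9% of all genes. Over all genes 7.37% fell.

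Of 23 tested genes of luteinizing hormone signalling and Leydig cell regulation, 2 rose and 2 fell, against 2.98% and 7.37% of all genes. The growth factor Igf1 rose to 529.1 ± 103.8 in KO, against 366.7 ± 18.2 in WT (SD, n = 3 each), and its receptor Igf1r to 298.4 ± 6.89, against 239.7 ± 17.3, with log2 fold changes of 0.50 and 0.31 (limma, adjusted p = 0.0400 and 0.0473). Rxfp2, the receptor of Insl3, fell from 136.2 ± 9.70 to 93.2 ± 3.25, and Crem, a cyclic AMP response factor best known from spermatids, from 653.2 ± 28.6 to 498.8 ± 55.8. Their log2 fold changes were -0.51 and -0.39 (limma, adjusted p = 0.0205 and 0.0234). In the list of other Leydig cell genes, 1 of 16 tested rose, against 2.98% of all genes. All 16 had a higher KO mean, as had 56.9% of all genes, and 8 did not overlap, against 21.5% of all genes. The risen gene was Inha, the inhibin alpha subunit, which Sertoli cells make too, with a log2 fold change of 0.23 (limma, adjusted p = 0.0385). The list's median was 0.21, below the 0.38 of the steroid synthesis genes, a difference that was not tested. Without KO replicate 3 the falls of Fdft1, Rxfp2 and Crem still passed, while Abca1, Abcg1, Igf1, Igf1r and Inha did not (limma, adjusted p from 0.0560 for Abca1 to 0.119 for Igf1).

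Markers of other cells moved with genotype as well. In Sertoli cells, the somatic cells within the tubules, 5 of 15 tested genes rose, against 2.98% of all genes. All 15 had a higher KO mean, as had 56.9% of all genes, and the median log2 fold change was 0.23. The risen genes were Drd4, Shbg, Wt1, Gstm6 and Inha, from 0.73 for Drd4 down to 0.23 for Inha. The summed signal of a list adds each gene with a probe set, tested or not, and for Sertoli cells it was 11675 to 12261 in KO and 10618 to 10884 in WT. The round spermatid list went the other way: 15 of 15 tested genes fell (Acrv1, Actl7a, Actl7b, Tssk1, Tssk2, Spaca1, Zpbp, Zpbp2, Tekt2, Capza3, Smcp, Izumo1, Tmco2, Catsper3 and Spata18). Over all genes 7.37% fell. These cell lists were chosen with earlier results of these data known, so their counts are descriptions only. The summed signal of the round spermatid list, which has 1 untested gene more, was 2395 to 2560 in KO and 3559 to 4586 in WT. With KO replicate 3 left out, Drd4 and Wt1 still passed among the Sertoli genes and 14 of the 15 round spermatid genes did. Without WT replicate 1, 2 of the 15 did. The part of these shifts in the steroid synthesis result was not tested.

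Macrophages lie beside Leydig cells, and their list followed the spread between arrays. None of 15 tested macrophage genes passed (limma). At an unadjusted limma p under 0.05, 8 were higher in KO, against 18.5% of all genes. Of the 15, 14 had a higher KO mean, as had 56.9% of all genes, and the median log2 fold change was 0.46. The summed signal was 2991, 3110 and 4503 in KO replicates 1 to 3 and 2410, 2063 and 2874 in WT replicates 1 to 3, so replicate 3 was the highest array in both groups, as for Cyp17a1. The lowest p belonged to Mpeg1 at 0.43 (limma, adjusted p = 0.0510) and C1qb at 0.64 (limma, adjusted p = 0.0544). In endothelium 2 of 10 tested genes rose, against 2.98% of all genes. These were Tek at 0.48 and Robo4 at 0.61, neither of which passed without KO replicate 3. The summed signals of endothelium were 423 to 579 in KO and 383 to 394 in WT. None of 10 peritubular myoid genes passed (limma; 2 at an unadjusted p under 0.05), with Ptch1 at 0.16 and Cald1 at 0.15 of lowest p and summed signals of 4722 to 5225 in KO and 4516 to 4749.5 in WT. Their part in the steroid result was not tested.

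Tissue from outside the testis was also checked. The adrenal cortex also expresses Star, Cyp11a1 and Scarb1. Its own enzymes were below the filter on dim probe sets and were not tested: mean signals in KO and WT were 5.6 and 3.6 for Cyp11b1, 2.3 and 1.7 for Cyp11b2, and 17.0 and 23.3 for Cyp21a1, and the receptor Mc2r had 1.3 and 0.9. Only Mrap, the accessory protein of Mc2r, was tested, with 55.02, 71.2 and 158 in KO replicates 1 to 3 against 31.6, 37.5 and 59.3 in WT replicates 1 to 3 (limma, adjusted p = 0.100). Replicate 3 was again the highest array of each group. Of 7 tested fat genes Car3 (0.95) and Fabp4 (0.80) rose and Pnpla2 (-0.28) fell, and the summed signal was 1167 to 1429.5 in KO and 815 to 1060 in WT. Of 4 tested epididymis genes Defb15 rose (1.22) and Adam7 (-0.86), Aqp9 (-0.32) and Rnase10 (-0.44) fell. The sums of this list were 638 to 783 in KO and 839 to 878 in WT. Over all genes 2.98% rose and 7.37% fell, and these lists too were chosen with earlier results of these data known. None of 3 red blood cell genes passed (limma; 0 at an unadjusted p under 0.05; Hba-a2 at -0.08 and Alas2 at 0.46), with sums of 1352 to 1839 in KO and 1299 to 1751 in WT. Without KO replicate 3, Car3 and Fabp4 still passed, and the other called genes of these lists did not. The part of adrenal tissue, fat, epididymis and blood in the result was not tested.

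**Figure D3:**
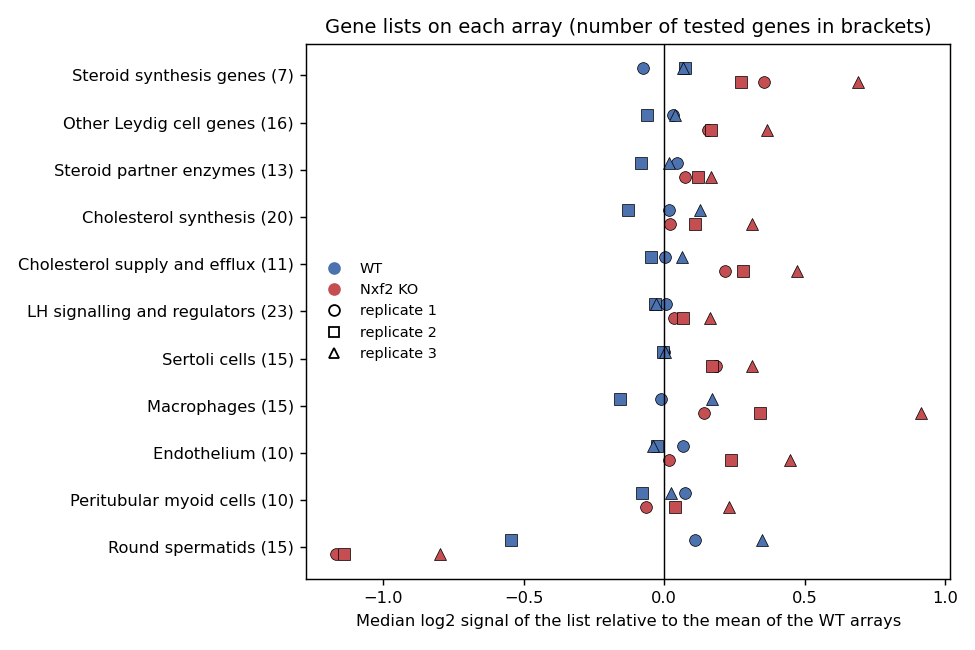
Median log2 signal of each gene list on each array, set against the average of the 3 WT arrays, for the number of tested genes in brackets. KO arrays are red, WT arrays blue, and marker shape gives the replicate number. The steroid synthesis list reaches 0.69 and the macrophage list 0.91 in KO replicate 3, while the round spermatid list lies between -1.17 and -0.80 on the KO arrays.

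The steroid synthesis genes were also read on a scale set by Sertoli cell genes, a list chosen with earlier results of these data known. As the Sertoli genes were higher in KO, smaller fold changes on this scale follow from its construction. With each array centred on the median of the Sertoli list, which lowers the fold change of each probe set by the same amount and takes the median of all tested probe sets from 0.037 to -0.22, the median log2 fold change of the 7 genes was 0.12. Star stayed higher at 0.75 and was the only gene of the list called in this fit (limma, adjusted p = 0.0106), against 0.270% of all genes that rose on this scale. Cyp17a1 had 0.54 (limma, adjusted p = 0.0795) and Cyp11a1 0.33 (limma, adjusted p = 0.102). Scarb1 was at 0.06 (limma, adjusted p = 0.555), and the means of Hsd3b1 and Nr5a1 changed sign, to -0.10 and -0.03. With arrays centred on their own medians Scarb1 was at 0.28 (limma, adjusted p = 0.0664) and Star at 0.97 (limma, adjusted p = 0.0264). The brightest Star probe set was thus called on these 3 scales, and the brightest Scarb1 probe set, of these 3, on the deposited one alone. The other Star probe sets passed on none of them (limma, adjusted p from 0.165 to 0.318). The third Scarb1 probe set passed under median centring as well (0.30, limma, adjusted p = 0.0365).

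The scale also bears on the other lists. On the Sertoli scale the median log2 fold change stayed above 0 for macrophages (0.21, with 14 of 15 genes higher), fat (0.25) and cholesterol supply and efflux (0.11). It turned to -0.13 for the partner enzymes, -0.07 for cholesterol synthesis, -0.13 for hormone signalling and regulation, -0.04 for the other Leydig cell genes, -0.17 for peritubular myoid cells and -0.002 for endothelium. The round spermatid list stayed lowest, at -1.23. Under quantile normalization and median centring no list changed the sign of its median.

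Without KO replicate 3, on the other hand, none of the 7 genes passed by brightest probe set, against 0.671% of all genes that then rose. At an unadjusted p under 0.05, 4 of the 7 were higher (limma), against 11.5% of all genes. The third Scarb1 probe set passed (limma, adjusted p = 0.0486). All 7 kept a higher KO mean. Star was at 0.78, Cyp17a1 at 0.50, Cyp11a1 at 0.40 and Scarb1 at 0.32. Scarb1, for which KO replicate 3 did not stand apart, hardly moved in size. Without WT replicate 1 no gene of the list passed either (limma; 4 at an unadjusted p under 0.05), but only 0.0617% of all genes then rose. Without KO replicate 1 Star alone passed, against 1.87% of all genes.

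**Figure D4:**
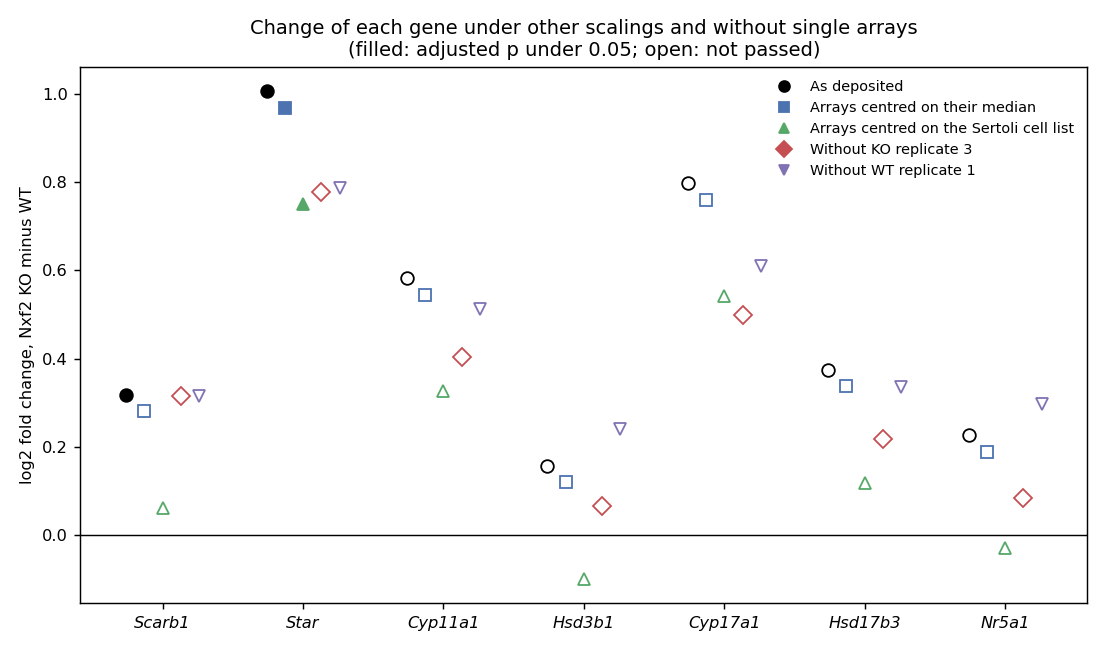
Log2 fold change of each steroid synthesis gene, KO minus WT, as deposited, under 2 other centrings of the arrays, and without KO replicate 3 or WT replicate 1. Filled markers passed at adjusted p under 0.05 and open ones did not. Star lies between 0.75 and 1.01 in all 5 settings, and Scarb1 drops to 0.06 when arrays are centred on the Sertoli list.

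Genes outside the list were ranked by how closely their log2 signals over the 6 arrays followed the mean of the 7 members. The most alike of 12165 candidates were Rilp (Pearson r = 0.996), Asah2 (0.995), Lgals1 (0.994), Ndufa10 (0.994) and Per1 (0.993). The arrays share the genotype difference and the high KO replicate 3, so these values describe likeness of pattern and carry no test. Each of the 5 was highest in KO replicate 3 and lowest in WT replicate 1, and none passed the comparison of KO with WT (limma, adjusted p from 0.0837 for Asah2 to 0.205 for Ndufa10).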

How the data were processed

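The 6 samples were grouped by their titles. The deposited table gives each probe set 1 linear signal intensity on each array, and the submitters' processing notes name MAS5 with no version. Of 45101 probe sets, 64 controls were left out. Of the other 45037, 34945 have 1 symbol in the platform annotation, 932 several and 9160 none, and 34741 of the 34945 matched the RefSeq table of GRCm38.p6 after symbols were updated. Promoter sequences are RefSeq's on that build. No source used here names the build behind the probe annotation.

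Signals were turned into log2(signal + 7), 7 being the 25th percentile of all values. The 27022 probe sets whose mean over 6 arrays reached the 40th percentile (20.5) were tested with limma 3.58.1 in R 4.3.3 (lmFit, eBayes with trend, two-sided, no covariate), with Benjamini-Hochberg adjustment over all of them and calls under 0.05. They represent 12971 genes of 1 symbol. Detection calls were not used here, and the number of arrays limits the precision.

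Named were Nxf2, every member, each called gene of the other lists or else the 2 of lowest p, and the 5 genes most alike. The 4 untested adrenal genes were added after their values were seen. Members and lists were chosen with earlier results of these data known. Alternatives were other scalings, pseudocounts, filters, variance models, array weights, a replicate block, arrays left out and the mean of a gene's probe sets. On simulated arrays of 27022 probe sets for KO against WT, the fit recovered 32.5% of 83 changes of 0.5, 76.4% of 55 changes of 1 and 95.2% of 62 changes of 2 (log2), with 8 false among 136 calls. The simulated noise was independent between arrays, and 2024 probe sets were called in the data, so these rates need not hold for the data.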

Additional observations from a re-analysis of the deposited data

How the results depend on the processing

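Star and Scarb1 were the 2 steroid synthesis genes called. The count was 1 under median centring (Star), under Sertoli centring (Star) and when the probe sets of a gene were averaged; 0 without the dim filter and 0 without the variance trend (5 each at an unadjusted p under 0.05); 5 under array weights; and 0 to 2 with 1 array left out. The share of all genes that rose, 2.98% at first, was 1.68%, 0.270%, 0.809%, 0.663% and 15.6% under median centring, Sertoli centring, no filter, no trend and array weights, and 0.0617% to 1.87% with 1 array left out. Quantile normalization and pseudocounts of 1 and 39 kept both calls. A stricter filter at the 60th percentile kept them and added Cyp11a1 (limma, adjusted p = 0.0481), against 4.57% of genes that then rose. Array weights gave WT replicate 1 a weight of 8.37 and the other arrays 0.375 to 1.37. The members' median of 0.38 became 0.12 under Sertoli centring. Signs turned under Sertoli centring, with or without the replicate block, for Hsd3b1 (-0.10), both Nr5a1 probe sets (-0.028 and -0.071) and the dimmer Cyp11a1 probe set (-0.14), and under array weights for Hsd3b1 (-0.0565) and that Cyp11a1 probe set (-0.0006). None of these was called.

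Over the whole table, 2024 probe sets changed. The number was 10101 under Sertoli centring, 1005 without the filter, 743 without the trend, 7217 under array weights and 4503 with the replicate block, and 159 (without WT replicate 1) to 1534 with 1 array left out. In the other lists 36 genes were called, with 13 without the filter, 11 without the trend, 72 under array weights, 69 with the replicate block and 4 to 31 with 1 array left out.

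The titles number the replicates, and the design text speaks of pairs without saying what they share. As no label says that equal numbers pair animals, they were not taken as pairs. Deviations from the group mean of arrays with the same number correlated at 0.079, 0.457 and 0.266 for numbers 1 to 3. Of the 6 arrays, 5 correlated best with their own number. These values do not settle whether the numbers are pairs. With the replicate block 5 members were called (Star, Scarb1, Cyp11a1 with an adjusted p of 0.0144, Cyp17a1 with 0.00034 and Hsd17b3 with 0.0460), against 10.7% of all genes that rose. Both combinations with a centring were chosen after seeing the data: with median centring 5 were called, against 7.44%, and with Sertoli centring 3 (Star, Cyp17a1 and Cyp11a1), against 0.863%. Of the 21 called genes of lists other than round spermatids, 2 (without WT replicate 1) to 10 were still called with 1 array left out. With 3 arrays a group, changes near 0.5 were recovered in 32.5% of simulated cases, a rate that need not hold for these data.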
